A study of Mus musculus with 123 samples.

Results

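The 5 genes described here are Alppl2, Mycbpap, Car4, Pianp and Alpl, out of 29,022 genes in the table of transcript counts. The first 4 were selected on measured values: they stood among the largest rises in inner cell masses (ICMs) without Oct4 (gene symbol Pou5f1), and Alpl was added as the alkaline phosphatase related to Alppl2. Their differences between Oct4-KO and Ctrl ICMs chose them and are therefore given as values, without a test. Tests are given for comparisons that did not enter the choice, and for Alpl throughout. All 5 genes passed the detection filter, which left 14,053 genes.

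The transcriptomes came from single mouse embryos of the B6C3F1 background, 1 library each, from an Oct4 line and a Sox2 line. In KO embryos neither the maternal nor the zygotic copy was functional: the floxed allele was deleted in the oocyte by Cre under the Zp3 promoter, and the paternal allele was a null labelled with mKO2 (Pou5f1) or EGFP (Sox2), by whose fluorescence KO embryos were recognised. Ctrl embryos shared the maternal deletion but carried an intact paternal allele, so that they were heterozygous, whereas the mothers of MWT embryos had kept the gene. Morulae, of E2.75, were taken whole. ICMs, of E3.75 when early and of E4.5 when late, had been cultured from E2.5 with 1 μM of the MEK inhibitor PD0325901, which suppresses primitive endoderm, and were isolated by immunosurgery, which removes the trophectoderm. At every stage a line contributed 8 Ctrl and 8 KO embryos. MWT embryos of the Oct4 line numbered 7 at the morula, 5 at the early and 8 at the late stage, and 7 Sox2 MWT embryos were all early ICMs. For the 13 Oct4 MWT ICMs the stage is that of the sample title, whereas the source name gives an earlier one, and the labels of the 5 early ones carry no treatment entry. In these 5 embryos Sox2, which rises in the ICM, held 131 to 280.2 CPM (UMI counts scaled to library size), against 2.47 to 32.1 CPM in the Oct4 MWT morulae.

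Alkaline phosphatases are ectoenzymes held to the outer leaflet of the plasma membrane by a glycosylphosphatidylinositol (GPI) anchor, and staining for their activity is a classical way to see pluripotent cells and primordial germ cells. Alpl encodes the tissue-nonspecific enzyme, which hydrolyses pyrophosphate and pyridoxal phosphate. Alppl2 encodes an enzyme of the placental and germ cell type, known from the preimplantation embryo. Car4, likewise GPI-anchored, is an extracellular carbonic anhydrase that interconverts CO2 and bicarbonate. Pianp is a transmembrane ligand of the immune receptor PILRA that also binds the GABA-B receptor. Mycbpap encodes a protein that associates with the Myc-binding protein MYCBP.

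In mm10, Alppl2 (ENSMUSG00000026246) spans chr1:87086694-87089928 on the minus strand, and its longest coding transcript in GENCODE vM21 has 11 exons and 1587 coding bases. Alpl (ENSMUSG00000028766) lies on another chromosome, at chr4:137741733-137796384 on the minus strand, with 12 exons and 1572 coding bases. Mycbpap (ENSMUSG00000039110) spans chr11:94501347-94521742 on the minus strand, with 19 exons. Car4 (ENSMUSG00000000805) is on the same chromosome, at chr11:84957786-84966044 on the plus strand, with 8 exons. Pianp (ENSMUSG00000030329) spans chr6:124996694-125003096 on the plus strand, with 6 exons. Of the 2310 distinct windows of 50 bases in Alppl2 transcripts, 3 also occur in Alpi or the pseudogene Akp-ps1, and none of these lies near the 3′ ends, where the reads fall. The other 4 genes share no such window with another gene. A long noncoding RNA, Gm29371, runs across Alppl2 on the opposite strand and held 4 UMIs over all embryos.

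The promoters are shown because these genes were higher in the same Oct4-KO ICMs while Alpl was lower, so that their start sites can be compared. RefSeq (GRCm38.p6) gave a window from 250 bases before to 50 after the annotated start for each gene. The first window of each is printed 5′ to 3′ on the gene's strand, and capitals mark matches, on either strand, to 7 short motifs. The octamer bound by OCT4 was searched as ATGCAAAT. The letters CTTTGT stood for SOX factors, the partners of OCT4. For TEAD, the factors of the Hippo pathway, the letters were GGAATG. Sites of GATA factors were searched as AGATAA in the same way. AP-2 factors were given GCCNNNGGC, KLF factors CCACACCC and T-box factors AGGTGTGA.
Alppl2, chr1:87089879-87090178, strand −: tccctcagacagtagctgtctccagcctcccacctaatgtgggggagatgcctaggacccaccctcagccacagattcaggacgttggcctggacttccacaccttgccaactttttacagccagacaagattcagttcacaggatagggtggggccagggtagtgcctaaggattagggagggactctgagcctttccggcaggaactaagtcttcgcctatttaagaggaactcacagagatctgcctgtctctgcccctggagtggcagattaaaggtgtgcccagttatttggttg
Mycbpap, chr11:94521453-94521752, strand −: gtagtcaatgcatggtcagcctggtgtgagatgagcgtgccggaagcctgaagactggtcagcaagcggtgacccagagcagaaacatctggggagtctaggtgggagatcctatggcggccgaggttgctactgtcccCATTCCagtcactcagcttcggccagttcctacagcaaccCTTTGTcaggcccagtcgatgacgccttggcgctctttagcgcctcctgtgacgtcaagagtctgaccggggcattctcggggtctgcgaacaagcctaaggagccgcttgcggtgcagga
Car4, chr11:84957504-84957803, strand +: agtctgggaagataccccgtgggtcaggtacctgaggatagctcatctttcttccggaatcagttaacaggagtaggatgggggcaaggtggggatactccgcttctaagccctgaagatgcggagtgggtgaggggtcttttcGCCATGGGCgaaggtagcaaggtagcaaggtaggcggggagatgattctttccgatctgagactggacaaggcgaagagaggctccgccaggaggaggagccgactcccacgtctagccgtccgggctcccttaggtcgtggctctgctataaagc
Pianp, chr6:124996470-124996769, strand +: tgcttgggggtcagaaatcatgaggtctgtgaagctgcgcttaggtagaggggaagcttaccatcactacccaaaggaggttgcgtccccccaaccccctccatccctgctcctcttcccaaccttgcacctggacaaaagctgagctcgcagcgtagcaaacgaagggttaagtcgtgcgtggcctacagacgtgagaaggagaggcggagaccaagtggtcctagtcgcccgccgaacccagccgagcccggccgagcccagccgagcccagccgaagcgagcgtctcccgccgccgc
Alpl, chr4:137796335-137796634, strand −: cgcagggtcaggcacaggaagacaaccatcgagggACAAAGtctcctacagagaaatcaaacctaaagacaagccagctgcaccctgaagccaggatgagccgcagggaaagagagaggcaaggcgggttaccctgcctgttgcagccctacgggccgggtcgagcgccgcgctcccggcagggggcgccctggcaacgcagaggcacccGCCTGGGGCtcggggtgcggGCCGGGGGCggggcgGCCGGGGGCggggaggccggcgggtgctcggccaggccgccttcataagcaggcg
None of the 7 motifs occurs in the window of Alppl2 or the 3 of Pianp. The Mycbpap window holds 1 SOX match, at position -71 from the start, and 1 TEAD match at -111. That of Car4 holds 1 AP-2 match at -106, and the printed one of Alpl holds 1 SOX match at -215 and 3 AP-2 matches at -40, -20 and -5. The second Alpl window holds 2 SOX matches, at -246 and -146. Among 32,851 such windows, 18.7% hold the SOX letters, 14.7% the TEAD letters, 16.6% the AP-2 letters and 1.74% the octamer. The Alppl2 window has 3 CpG dinucleotides, against a median of 7 over all windows, and the windows of Mycbpap, Car4, Pianp and Alpl have 16, 15, 22 and 26. RefSeq gave further starts for 2 genes, and these windows, not printed, have 6 and 6 CpG for Pianp and 4 for Alpl. A match is a string of letters, not a bound site.

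Expression is given in CPM after TMM scaling. A UMI is a random tag that lets PCR copies of a molecule be counted once, and embryos held 525,755 to 1,344,035 of them. In the check of the deleted genes, Pou5f1 fell from 24.6 to 64.7 CPM in Oct4 Ctrl late ICMs to at most 1.25 CPM in the KO ones, where 1 UMI was left over 8 embryos. Sox2 kept UMIs in Sox2-KO ICMs, at 8.33 to 32.8 CPM in late ICMs against 93.8 to 279 CPM in Ctrl. The paper reports, from immunostaining, that embryos with EGFP had lost the Sox2 protein. The source of the remaining UMIs was not examined. A gene was called at an adjusted p under 0.05 (edgeR's quasi-likelihood test, Benjamini-Hochberg adjustment over all genes tested) and a log2 fold change of 1 or more in size. The embryos of a group are not stated to come from separate litters, so the p-values rest on the spread between these embryos. That spread was estimated over all groups of a fit together, also where 1 group was more widely spread than the others.

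**Figure D1:**
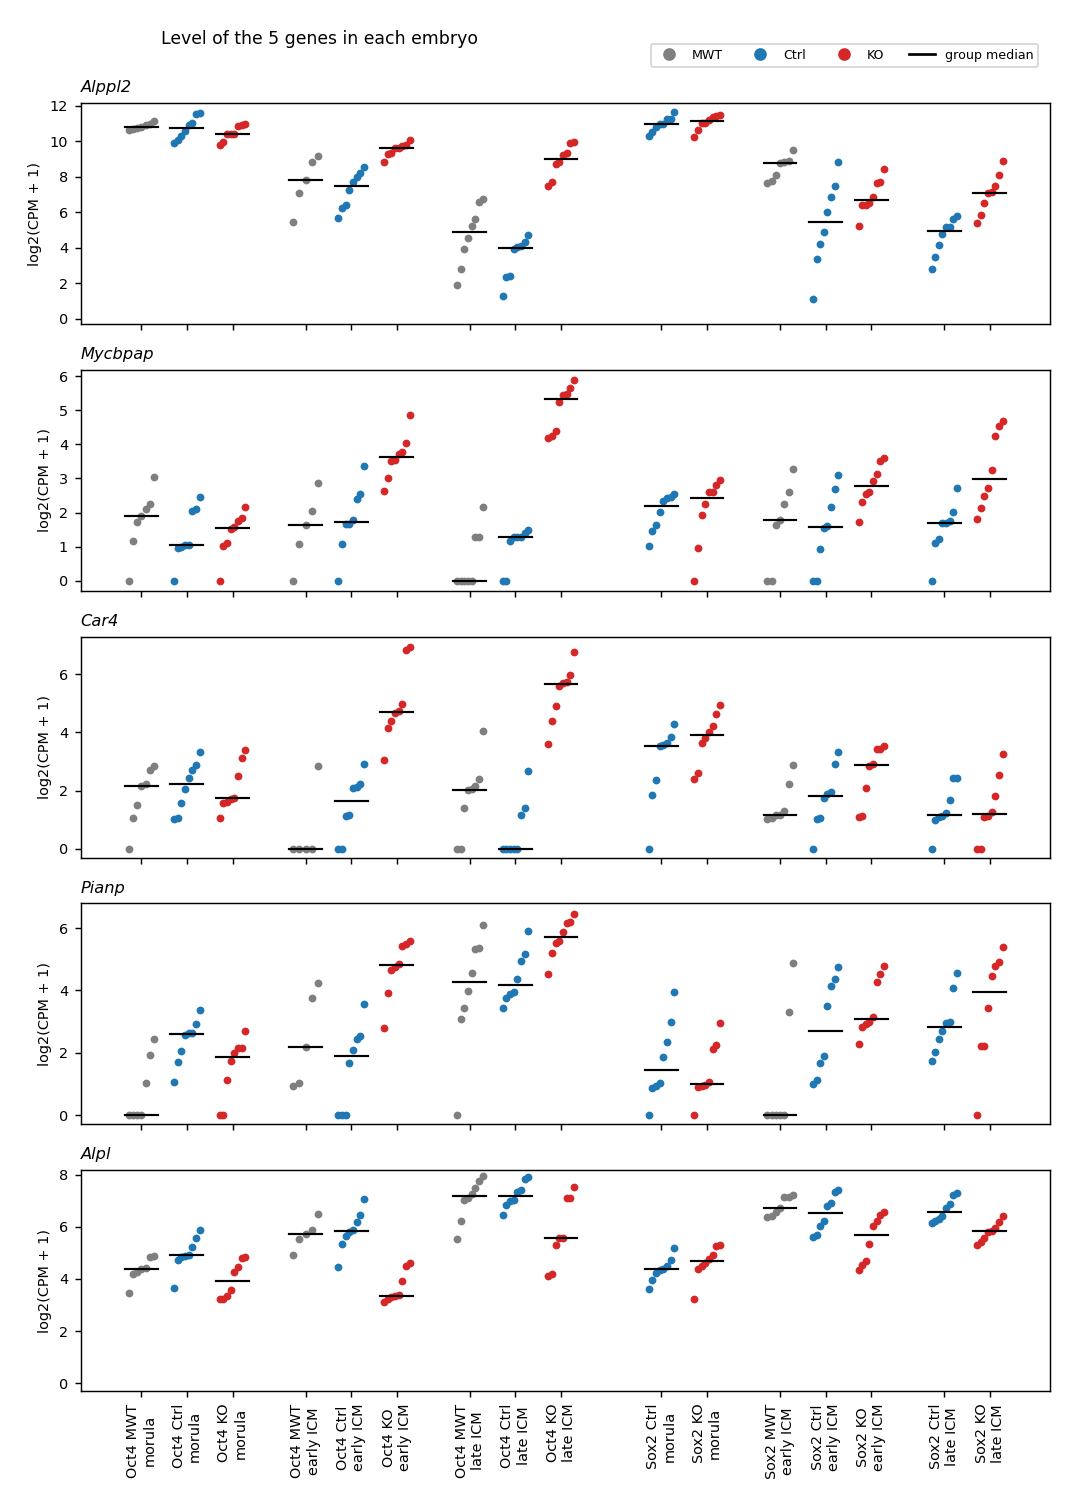
Level of each of the 5 genes in each embryo, as log2(CPM + 1) on the y axis, by line, genotype and stage on the x axis. Points are embryos sorted within their group, and the line is the group median. Alppl2 is high in every morula and stays high in Oct4-KO ICMs, whereas Alpl is low in morulae and lower in Oct4-KO than in Ctrl early ICMs.

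Alppl2 was a transcript of the morula. It lay between 877 and 3176 CPM in the 39 morulae of all genotypes, and the 5 morula groups overlapped. In Oct4 Ctrl embryos it ran from 962 to 3085 CPM in morulae (median 1753), from 50.3 to 370.2 CPM in early ICMs (median 182) and from 1.45 to 25.6 CPM in late ICMs (median 15). No Ctrl early ICM of that line reached the level of a Ctrl morula, and no late ICM that of an early one. Embryos that the choice of genes did not use followed the same course. In Oct4 MWT embryos Alppl2 fell from 1602 to 2263 CPM in morulae to 43.7 to 571 CPM in early ICMs (log2 fold change -2.69 ± 0.54, SE, adjusted p = 1.73e-05, lower in 5 of 5 embryos than the morula median). It fell again, to between 2.79 and 105 CPM in late ICMs (log2 fold change -2.82 ± 0.52, adjusted p = 1.03e-05, lower in 8 of 8 embryos than the median of early ICMs).

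In Sox2 Ctrl embryos Alppl2 fell from 1267 to 3176 CPM in morulae to 1.2 to 465 CPM in early ICMs (log2 fold change -4.23 ± 0.47, adjusted p = 3.75e-13, lower in 8 of 8 embryos). The early ICMs of this group were widely spread, and 1 embryo, number 2, held the value of 465 CPM while the next stood at 181 CPM. The further drop to late ICMs, at 6.07 to 53.7 CPM, was -1.98 ± 0.49 on the log2 scale (adjusted p = 0.00511, lower in 6 of 8 embryos) and rested on that embryo: without it the value was -1.10 (adjusted p = 0.167), and limma on the authors' rlog values gave -0.78 (adjusted p = 0.247). Of all genes tested, 14.7% were called lower from morula to early ICM in Sox2 Ctrl embryos and 12.3% in Oct4 MWT embryos, and 0.961% and 5.93% from early to late ICM. Stage, culture with the inhibitor and removal of the outer cells changed together, and 7 of the 12 trophectoderm markers, Cdx2 and Gata3 included, were called lower and 1, Plac1, higher over the same step in Sox2 Ctrl embryos. Over that step 8 of 12 epiblast and 7 of 10 primitive endoderm markers were called higher, and 1 of the latter lower. In such bulk samples fewer cells of a type and less RNA per cell cannot be told apart.

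Oct4-KO embryos entered the course at the Ctrl level and stayed high. In Oct4-KO morulae Alppl2 lay between 877 and 2056 CPM (log2 difference to Ctrl -0.31 ± 0.40, adjusted p = 0.860). In Oct4-KO early ICMs it ran from 465 to 1064 CPM (median 793) and in late ICMs from 177 to 986 CPM (median 525), and at both stages every KO ICM was above every Ctrl ICM of the same stage. The late difference was 5.49 on the log2 scale, and the summed UMIs, 3181 in KO and 66 in Ctrl, gave a ratio of 45.2 (95% interval 35.5 to 58.6, exact Poisson, counting error only). This difference chose the gene, so the interval is not a test, and it leaves out the spread between embryos. The early difference was 2.04. The KO late ICMs were also above the highest of the 8 MWT late ICMs, at 105 CPM. The word gained thus describes Alppl2 only relative to Ctrl ICMs, since the median in Oct4-KO embryos was lower in early ICMs than in morulae (1388 CPM) and lower again in late ICMs.

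**Figure D2:**
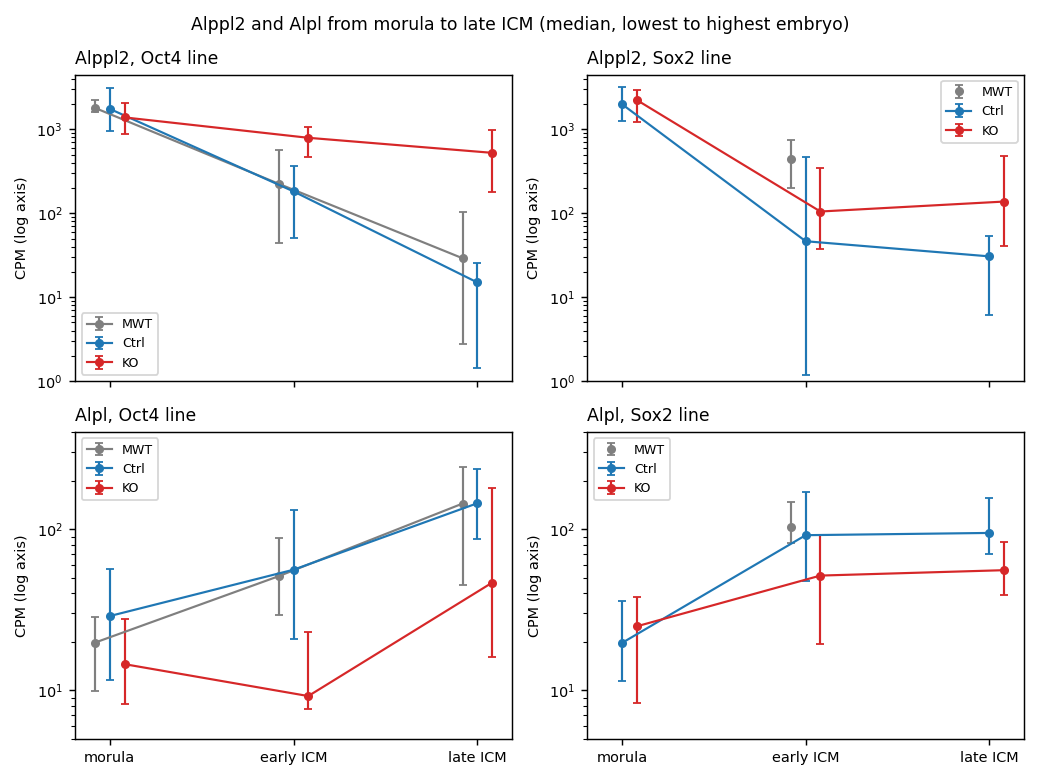
Alppl2 (top) and Alpl (bottom) at 3 stages in the Oct4 line (left) and the Sox2 line (right), in CPM on a log axis. Points are group medians and bars run from the lowest to the highest embryo, with MWT of the Sox2 line measured only in early ICMs. In Oct4-KO embryos the median of Alppl2 is 1388 CPM in morulae and 525 CPM in late ICMs, while in Ctrl it drops from 1753 to 15 CPM.

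In the Sox2 line Alppl2 was called higher without Sox2 in late ICMs, and was not called in early ICMs or morulae. Sox2-KO late ICMs held 41.1 to 480 CPM (median 138) and Ctrl ones 6.07 to 53.7 CPM (median 30.7), so that the groups overlapped only at their edges. The log2 fold change was 2.62 ± 0.49 (adjusted p = 2.90e-05, above the Ctrl median in 8 of 8 embryos). In early ICMs the ranges were 37.2 to 349 CPM in KO and 1.2 to 465 CPM in Ctrl, with a difference of 0.38 ± 0.43 (adjusted p = 0.686, 95% interval -0.46 to 1.23, above the Ctrl median in 7 of 8 embryos). That value rested on Ctrl embryo 2, without which it was 1.26 (adjusted p = 0.0592). In morulae it was 0.11 ± 0.40 (adjusted p = 1.00). The difference between the late and the early effect was itself 2.23 ± 0.65 on the log2 scale, with an unadjusted p of 0.000834 in edgeR's test and an adjusted p of 0.136, and was not called (called were 0.0356% of genes upwards and 0.00712% downwards). It was 1.35 without Ctrl early ICM 2 (adjusted p = 0.477) and 0.95 with limma on rlog values, called in neither. Early ICMs of Sox2 MWT embryos held 201 to 746 CPM of Alppl2, 1.85 ± 0.45 above Ctrl on the log2 scale (adjusted p = 0.00466, above the Ctrl median in 7 of 7 embryos), although the groups overlapped. There 1.17% of genes were called higher and 1.41% lower, and the other 4 genes were not called. Pou5f1 also differed there without overlap, at 96.1 to 138 CPM in MWT and 39.0 to 86.1 CPM in Ctrl. So did the summed primitive endoderm markers (1083 to 1548 and 341 to 1025 CPM), whereas the trophectoderm and epiblast sums overlapped. What sets these 2 groups apart was not tested. In Oct4 morulae MWT and Ctrl embryos differed by -0.01 ± 0.43 (adjusted p = 1.00), where 0.0144% of genes were called higher and 0.0503% lower and none of the 5.

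Ordered by mean CPM, the 5 morula groups came first, followed by Oct4-KO early ICMs (768), Oct4-KO late ICMs (558), Sox2 MWT early ICMs (403) and Oct4 MWT early ICMs (288). The remaining ICM groups had means of 187 CPM or less, and the last was Oct4 Ctrl late ICMs at 12.6 CPM. Each group overlapped with the next in this order.

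Alpl went against its place among genes gained without Oct4. In Ctrl and MWT embryos it was low in morulae and higher in ICMs, the reverse of Alppl2. In Oct4-KO embryos its mean was 16.3 CPM in morulae and 12.8 CPM in early ICMs. Its mean was lower in KO than in Ctrl ICMs of both lines. Over the 16 group means the correlation of Alpl with Alppl2 on the log2 CPM scale was -0.86, a description over groups that share lines and stages. In Sox2 Ctrl embryos it ran from 11.4 to 35.7 CPM in morulae and from 48.0 to 170 CPM in early ICMs, and rose by 2.23 ± 0.34 on the log2 scale (adjusted p = 2.10e-08, 8 of 8 embryos above the morula median). From early to late ICMs, at 70.6 to 157 CPM, the difference was 0.05 ± 0.30 (adjusted p = 0.959). In Oct4 MWT embryos Alpl rose at both steps, by 1.39 ± 0.39 (adjusted p = 0.00234) from 9.88 to 28.4 CPM in morulae to 29.3 to 88.6 CPM in early ICMs, and by 1.44 ± 0.36 (adjusted p = 0.00107) to 44.7 to 242 CPM in late ICMs. Among all genes tested, 17.2% were called higher from morula to early ICM in Sox2 Ctrl embryos, 1.94% from early to late ICM there, and 15.3% and 7.28% at the steps of Oct4 MWT embryos.

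Without Oct4, Alpl was called lower than in Ctrl in early and late ICMs. In early ICMs it ran from 7.67 to 23.1 CPM in KO (median 9.21) and from 20.7 to 131 CPM in Ctrl (median 56.0), and only the edges of the groups met. It fell relative to Ctrl (log2 fold change -2.30 ± 0.38, adjusted p = 1.25e-06, with all 8 embryos below the median of Ctrl), a call made for 6.11% of genes in that direction. In late ICMs Alpl ran from 86.9 to 238 CPM in Ctrl (median 145), and in KO 3 embryos held 135, 136.5 and 181 CPM and the other 5 held 16.2, 17.5, 38.2, 46.0 and 47.0 CPM. The group thus fell into separate levels, and both occurred among the embryos labelled 1 and those labelled 2. The log2 fold change was -1.0 ± 0.31 (adjusted p = 0.00828, 7 of 8 embryos lower than the median of Ctrl), at the fold minimum itself, and 8.85% of genes were called lower. Several alternatives missed that minimum, as did 8 of the 16 fits that left out 1 embryo. In morulae the log2 fold change was -0.97 ± 0.37 (adjusted p = 0.203), with all 8 KO embryos below the Ctrl median.

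Without Sox2, Alpl ran from 19.3 to 92.6 CPM in early ICMs against 48.0 to 170 CPM in Ctrl, a log2 difference of -0.92 ± 0.31 (adjusted p = 0.0565, 7 of 8 embryos lower than the median of Ctrl). In late ICMs the ranges were 38.9 to 83.3 CPM and 70.6 to 157 CPM, with a difference of -0.87 ± 0.32 (adjusted p = 0.0514, 8 of 8 embryos). Neither was called, but both lay near the threshold. The late one was called in label set 1 alone (-1.02, adjusted p = 0.0205, set 1 being embryos whose number starts with 1), and the early one with thinned UMIs (-1.01, adjusted p = 0.0413) and without any 1 of 4 embryos. The effect of Oct4-KO on Alpl exceeded that of Sox2-KO in early ICMs by -1.38 ± 0.49 on the log2 scale (adjusted p = 0.0649), which edgeR's test did not call with all embryos, but did without any 1 of 8 among 32 (adjusted p down to 0.0345), as did DESeq2 (adjusted p = 0.0461). In late ICMs the lines differed by -0.13 ± 0.44 (adjusted p = 0.919) and in morulae by -1.29 ± 0.52 (adjusted p = 0.396).

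Mycbpap was near the limit of detection in most groups. It held 0 to 9.36 CPM in the 75 Ctrl and MWT embryos. In Oct4-KO early ICMs it ran from 5.17 to 28 CPM (median 11.3) against 0 to 9.36 CPM in Ctrl (median 2.32), and in late ICMs from 17.3 to 58.3 CPM (median 39.7) against 0 to 1.80 CPM. The early groups overlapped and the late ones did not. The late log2 difference was 4.83, and 196 UMIs in KO against 6 in Ctrl gave a ratio of 30.7 (95% interval 13.8 to 84.6, counting error only, not a test). In Oct4-KO morulae Mycbpap lay at 0 to 3.52 CPM, with a log2 difference to Ctrl of 0.01 ± 0.57 (adjusted p = 1.00). In Sox2-KO late ICMs it rose by 2.27 ± 0.49 (adjusted p = 0.000316), from 0 to 5.57 CPM in Ctrl to 2.5 to 24.5 CPM, with 8 of 8 embryos above the Ctrl median. Smaller sets of these embryos lost the call in edgeR's test. In embryos numbered alike in KO and Ctrl the value was 1.44 with the number as a block (adjusted p = 0.318) and 1.70 without it (adjusted p = 0.346). In label set 2 alone it was 1.46 (adjusted p = 0.312). In Sox2-KO early ICMs, at 2.32 to 11.2 CPM against 0 to 7.55 CPM, the difference was 1.24 ± 0.49 (adjusted p = 0.116, 8 of 8 embryos), and was called without Ctrl embryo 4 (1.66, adjusted p = 0.0370). None of the 4 stage steps in Sox2 Ctrl and Oct4 MWT embryos was called for Mycbpap.

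Car4 had its highest levels in Oct4-KO ICMs. In Oct4-KO early ICMs it ran from 7.24 to 121 CPM (median 25.0) against 0 to 6.45 CPM in Ctrl, and in late ICMs from 11.1 to 108 CPM (median 49.2) against 0 to 5.40 CPM, with no overlap at either stage. In early ICMs 2 embryos, at 111 and 121 CPM, stood far above the other 6, which held 7.24 to 30.3 CPM. The log2 differences were 4.14 and 5.49. The late UMIs, 284 in KO and 5 in Ctrl, gave a ratio of 53.3 (95% interval 22.6 to 165, counting error only, not a test). On the authors' rlog scale, which shrinks low counts, the differences were 2.47 and 2.97 with limma, and the late one of Mycbpap was 2.71. In Sox2-KO embryos Car4 was called at no stage. Its ranges there were 4.27 to 29.7 CPM in morulae, 1.12 to 10.4 CPM in early ICMs and 0 to 8.57 CPM in late ICMs, and the log2 differences to Ctrl were 0.74 ± 0.47, 0.87 ± 0.62 and 0.35 ± 0.80 (adjusted p = 1.00, 0.465 and 0.836). The interval of the late difference, -1.22 to 1.93, leaves room for a rise above the fold minimum. Like Alppl2, Car4 fell from morula to early ICM in Sox2 Ctrl embryos, from 0 to 18.6 CPM to 0 to 9.00 CPM (log2 fold change -1.43 ± 0.57, adjusted p = 0.0296, 8 of 8 embryos below the morula median), a call lost without any 1 of 5 embryos with thinned UMIs (adjusted p = 0.146) and with limma on rlog values (-0.72, adjusted p = 0.0504). In Oct4 MWT embryos, where 1 early ICM held 6.25 CPM and the other 4 held none, the steps of Car4 were -1.31 and 1.59 on the log2 scale and were not called. They rested on that embryo, without which the group held no UMI and gave no fold, against 21 UMIs over the 7 morulae and 22 over the 8 late ICMs. Both steps were then called in edgeR's test (adjusted p = 0.0122 and 0.0129).

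Pianp was also present in Ctrl late ICMs of the Oct4 line. It ran from 1.07 to 9.34 CPM in Ctrl morulae, from 0 to 10.7 CPM in Ctrl early ICMs and from 9.72 to 59.4 CPM in Ctrl late ICMs. Oct4-KO early ICMs held 6.00 to 47.5 CPM (median 27.0) and late ICMs 22.2 to 87.6 CPM (median 52.2), and KO and Ctrl overlapped at both stages. The log2 difference was 3.11 in early and 1.21 in late ICMs. In Oct4 MWT embryos Pianp rose by 2.38 ± 0.97 (adjusted p = 0.0384) from morula to early ICM, where it held 0.90 to 17.9 CPM, and by 1.85 ± 0.67 (adjusted p = 0.0299) to late ICMs at 0 to 67.4 CPM. These calls rested on few UMIs, 8 over the 7 morulae, and the first was lost without either of 2 early ICMs and the second without any of 3. Both were lost with thinned UMIs (2.08 and 1.67, adjusted p = 0.0950 and 0.0594), the first also with limma (0.80, adjusted p = 0.137) and the second with DESeq2 (adjusted p = 0.0586). In Sox2 Ctrl embryos the steps were 1.26 ± 0.58 (adjusted p = 0.0589) and -0.29 ± 0.54 (adjusted p = 0.826), and the first was called with DESeq2 (1.37, adjusted p = 0.0496) with scaling by total UMIs (1.33, adjusted p = 0.0433) and without any 1 of 6 embryos, most of all without morula 20 (1.99, adjusted p = 0.00673). In late ICMs without Sox2 the range was 0 to 40.8 CPM against 2.34 to 22.8 CPM in Ctrl, with a difference of 1.05 ± 0.52 (adjusted p = 0.179, 5 of 8 embryos above the Ctrl median). In Sox2-KO early ICMs it was 0.30 ± 0.51 (adjusted p = 0.811). Sox2 MWT early ICMs held no Pianp UMI in 5 of 7 embryos and 28.7 CPM in 1.

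**Figure D3:**
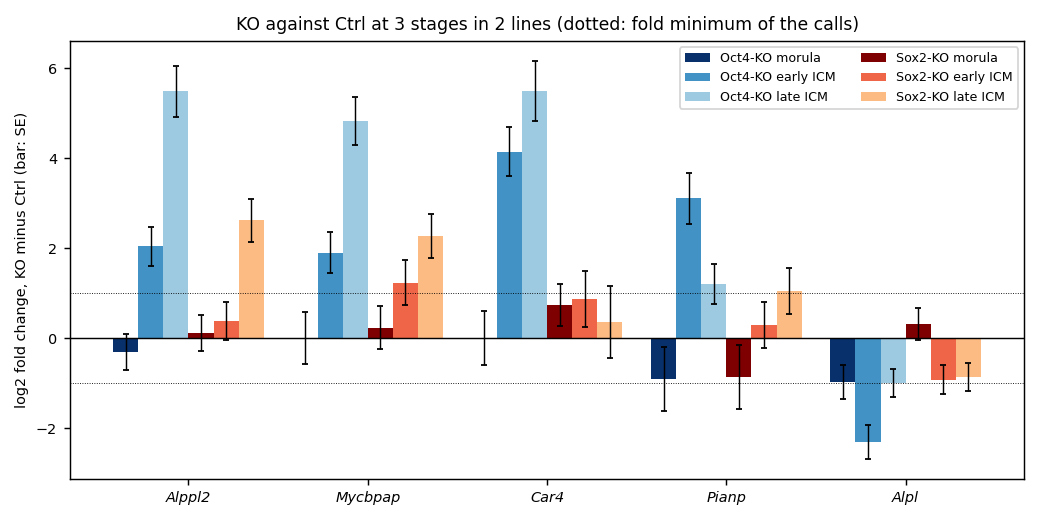
Log2 fold change of KO over Ctrl (y axis) for the 5 genes at 3 stages in the Oct4 line (blue) and the Sox2 line (red). Error bars are SE, and dotted lines mark the fold minimum of 1. The blue bars of Alppl2, Mycbpap, Car4 and Pianp in ICMs chose these genes. Outside that choice, Alppl2 (2.62) and Mycbpap (2.27) rise in Sox2-KO late ICMs and Alpl points down in every ICM comparison.

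Counted over the genes, 2 of 5 were called higher in Sox2-KO late ICMs, where 3.34% of all genes tested were and 3.61% were called lower. The share among genes that already rose without Oct4, as 4 of the 5 did, was not determined. None of the 5 was called in Sox2-KO early ICMs (1.57% of genes higher and 1.69% lower), Sox2-KO morulae (0% and 0.00712%) or Oct4-KO morulae (0.178% and 0.626%). At an unadjusted p under 0.05 the edgeR test would take Mycbpap and Alpl in Sox2-KO early ICMs and Alpl in Oct4-KO morulae, and none in Sox2-KO morulae. It would take 2750, 1707 and 618 of the 14,053 genes there. DESeq2 likewise called none of the 5 in these 3 comparisons. The choice itself used calls made for 4.77% of genes as higher in early and 9.25% in late Oct4-KO ICMs. Ranked were the rises whose KO mean reached 20 CPM with every KO embryo above the Ctrl median. Predicted genes, Riken clones, numbered pseudogenes and mitochondrial genes were passed over. Car4 led the early rises, Lrp2 (3.31) came next and Pianp was the third. The next ones, just outside, were Reck (3.10), Gsta2 (3.07) and Fabp3 (3.06). Among all 670 genes called higher in early ICMs, Car4 was number 4 and Pianp number 32. Among the late rises Car4 and Alppl2 were followed by Slc6a13 (5.13) and Mycbpap, and then by Hkdc1 (4.71), Ldoc1 (4.55) and Anxa8 (4.32). Among all 1300 genes called higher in late ICMs, Car4, Alppl2 and Mycbpap were numbers 3, 4 and 10. At the other stage the ranks were lower. Alppl2 was number 40 of the 207 early rises ranked and Pianp number 401 of the 539 late ones. Mycbpap, at a mean of 12.6 CPM in Oct4-KO early ICMs, was below the 20 CPM.

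Trophectoderm markers were higher beside these genes in Oct4-KO late ICMs, and less evenly so elsewhere. In Oct4-KO late ICMs 10 of 12 trophectoderm markers were called higher, Cdx2, Gata3 and Krt8 among them, and none lower. Their summed level was 1611 to 3405 CPM in KO and 282 to 1070 CPM in Ctrl, and no marker was without UMIs. In Oct4-KO early ICMs 3 were called higher and 2 lower, with sums of 917 to 1625 CPM against 470 to 1521 CPM, and Gata3, a regulator of trophectoderm, ran from 190 to 513 CPM against 15.2 to 215 CPM. In Sox2-KO late ICMs 3 of 12 were called higher and 1 lower, with sums of 685 to 1942 CPM against 260 to 2996 CPM, and Gata3 lay at 119 to 314 CPM against 4.02 to 227 CPM. In Sox2-KO early ICMs, where none of the 5 genes was called, 6 were higher and 1 lower. Over the 12 markers the median log2 fold change was 1.97 in Oct4-KO late, 0.46 in Oct4-KO early, 0.088 in Sox2-KO late and 1.61 in Sox2-KO early ICMs. All 12 epiblast markers were called lower in late ICMs without Oct4, and 8 in those without Sox2, with none higher in either. These counts include the deleted gene itself, Pou5f1 in the Oct4 line and Sox2 in the Sox2 line. Of 10 primitive endoderm markers tested, 6 were lower and 2 higher in Oct4-KO late ICMs. The summed level of the whole list of 12 was nevertheless 1173 to 1957 CPM there (median 1487) against 561 to 2384 CPM in Ctrl (median 919). Sox17 held 4 UMIs over the 8 KO embryos and 462 over the Ctrl ones, where it ran from 1.45 to 404 CPM with a median of 10.7. The part of these cell types in the levels of the 5 genes was not tested.

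The late ICMs carry a label set, the first digit of the embryo number, whose meaning is not given. Within Oct4-KO late ICMs Mycbpap lay at 42.9 to 58.3 CPM in the 4 embryos of set 1 and at 17.3 to 36.5 CPM in the 4 of set 2, without overlap. Pianp lay at 22.2 to 47.2 CPM in set 1 and 57.2 to 87.6 CPM in set 2. Alppl2 (177 to 965 and 429 to 986 CPM) and Car4 (11.1 to 62.3 and 47.6 to 108 CPM) overlapped between sets. In Sox2-KO late ICMs Mycbpap was 4.65 to 24.5 CPM in set 1 and 2.5 to 8.55 CPM in set 2, and its fold change was not called in set 2 alone (log2 fold change 1.46, adjusted p = 0.312 in edgeR's test). With the set as a block both Alppl2 and Mycbpap were still called there.

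**Figure D4:**
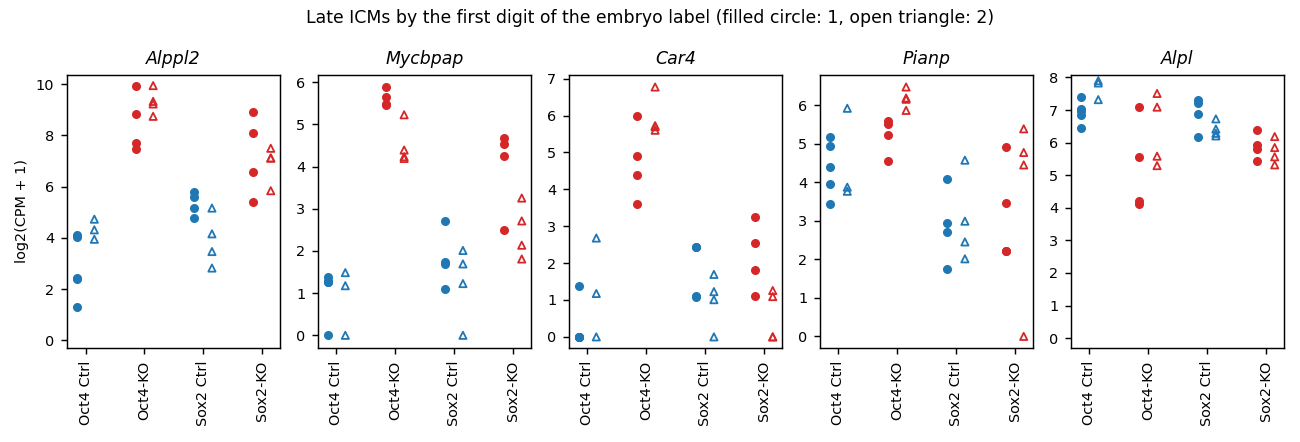
Levels of the 5 genes in the 32 Ctrl and KO late ICMs, as log2(CPM + 1), by group on the x axis. Each point is an embryo, with filled circles for label set 1 and open triangles for label set 2. In Oct4-KO late ICMs Mycbpap is higher in set 1 (42.9 to 58.3 CPM) than in set 2 (17.3 to 36.5 CPM), and Pianp the other way round.

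Of the other alkaline phosphatases only Alpi, the intestinal enzyme, could be examined. It held 1 UMI over all embryos, and Akp3 and Alpg were not analysed here. Among 11 genes that handle phosphate, pyrophosphate and vitamin B6, from which alkaline phosphatase draws substrates, Ank and Enpp1 were the recurrent rises. Ank, which exports pyrophosphate and ATP, was called higher in all 4 ICM comparisons, from 104 CPM in Ctrl to 516 CPM in Oct4-KO late ICMs (2.34 ± 0.32, adjusted p = 3.38e-09, 8 of 8 embryos above the Ctrl median). Enpp1, which makes pyrophosphate from ATP, rose from a mean of 5.69 to 53.3 CPM there (3.26 ± 0.49, adjusted p = 1.06e-07). It also rose in early (2.61) and late (2.37) ICMs of Sox2-KO embryos, while in Oct4-KO early ICMs its difference was 0.09. Nt5e, the ectonucleotidase that turns AMP into adenosine, was called lower in Oct4-KO early and in both Sox2-KO ICM comparisons, at means under 5 CPM. In Oct4-KO late ICMs 3 of 11 were higher and 1, Enpp3, lower (median log2 fold change -0.09, against -0.01 for all genes tested, of which 9.25% and 8.85% were called). In Sox2-KO late ICMs 2 were higher and 2 lower (median 0.48, against 0.0012 for all genes, of which 3.34% and 3.61% were called).

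Of the other carbonic anhydrases, none of the 7 tested was called higher in any ICM comparison, where 1.57% to 9.25% of all genes were. Lower were 3 in Oct4-KO late ICMs (median -0.95), against 8.85% of all genes. Car2, the abundant cytosolic enzyme, fell from a mean of 69.8 CPM to 3.42 CPM there (log2 fold change -4.31 ± 0.61, adjusted p = 1.35e-08, with all 8 embryos below the median of Ctrl). It fell in Sox2-KO late ICMs as well (log2 fold change -2.16 ± 0.56, adjusted p = 0.00407). Car9, a membrane enzyme induced by hypoxia, was lower in both Oct4-KO ICM comparisons (-2.96 and -2.04). Car8, a member without catalytic activity, held no UMI in Oct4-KO late ICMs against 52 in Ctrl, at least 18.5-fold lower with a floor of 3 UMIs over the group. Of 6 bicarbonate transporters tested, Slc4a3 was higher in Oct4-KO early and Sox2-KO late ICMs (2.41 and 1.64). Slc4a7 was lower in both Oct4-KO ICM stages (-1.89 early and -1.47 late), Slc4a8 in these and in Sox2-KO late ICMs (-2.45, -2.57 and -2.57), and Slc4a5 in Oct4-KO early ICMs (-3.25).

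GPI anchor assembly, which Alppl2, Alpl and Car4 all need, was followed in 29 genes. In Oct4-KO late ICMs 3 were higher and 2 lower, with a median of 0.05, close to the 9.25% and 8.85% over all genes. Pigz, which adds a side-chain mannose to the anchor, was called higher in both Oct4-KO ICM comparisons (2.31 and 2.86) and without Sox2 in late ICMs (1.92 ± 0.40, adjusted p = 0.00023, from a mean of 6.00 to 22.8 CPM). Dpm3, a subunit of dolichol phosphate mannose synthase, rose in Oct4-KO late ICMs (1.38 ± 0.18), where its catalytic subunit Dpm1 fell (-1.15 ± 0.26).

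A partner of Pianp went the other way. Gabbr1, a subunit of the GABA-B receptor, was called lower in all 4 ICM comparisons, from a mean of 11.1 to 0.29 CPM in Oct4-KO early ICMs (-4.70 ± 0.67, adjusted p = 4.31e-08) and from 25.8 to 2.13 CPM in late ones (-3.61 ± 0.50). It fell from 30.0 to 3.31 CPM in Sox2-KO late ICMs (-3.07 ± 0.44, adjusted p = 7.52e-08). The other 2 genes tested of that list were not called. Of 7 Myc-binding protein partners, Mycl was called lower in all 4 ICM comparisons and Mycn higher in 3, at 1.22 (Oct4-KO early ICMs), 1.07 (Oct4-KO late ICMs) and 1.62 (Sox2-KO early ICMs). Myc itself was called lower in Sox2-KO late ICMs (-1.42 ± 0.45, adjusted p = 0.0197). That makes 1 higher and 1 lower of 7 in each of the other 3 comparisons and 2 lower in this one, against 1.57% to 9.25% of all genes called higher and 1.69% to 8.85% called lower.

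**Figure D5:**
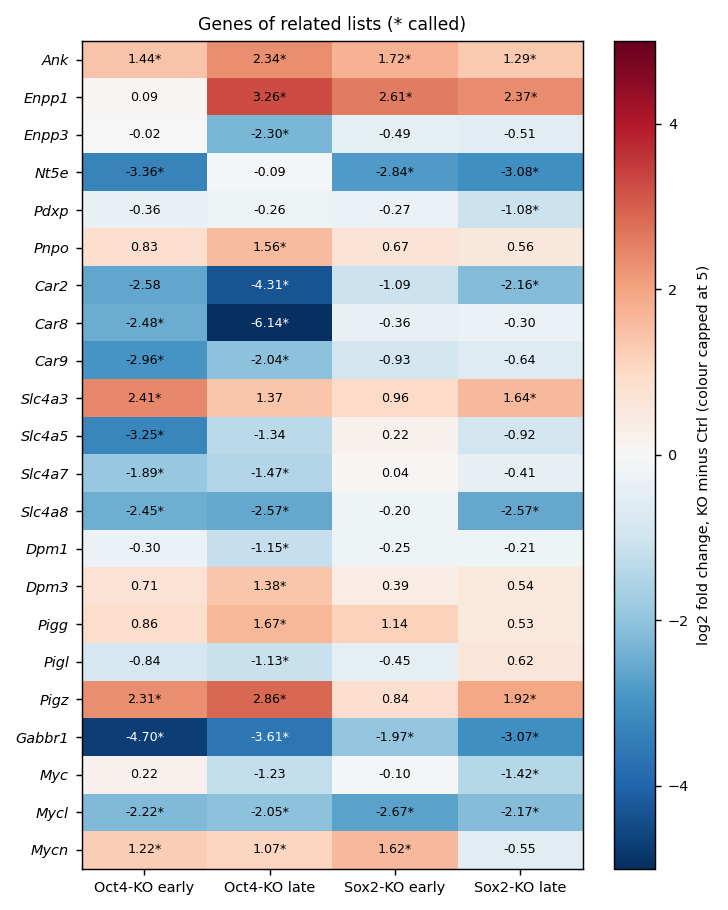
Log2 fold change of KO over Ctrl for the 22 genes of the related lists that were called in at least 1 of the 4 ICM comparisons. Rows are genes, columns are comparisons, colour is the log2 fold change capped at 5, and an asterisk marks a call. Ank is called higher and Gabbr1 and Mycl lower in all 4 columns, and no carbonic anhydrase is called higher.

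Around the 5 genes, 34 genes of the table lay within 100 kb and 20 of them were tested. In Oct4-KO late ICMs 3 of the 20 were called higher and 1 lower, where 9.25% and 8.85% of all genes were, and in Sox2-KO late ICMs none higher and 2 lower, against 3.34% and 3.61%. The nearest called one was Epn3, an endocytic adaptor on the same strand as Mycbpap and 1.37 kb away. It ran from 36.5 to 207 CPM in Oct4-KO late ICMs against 0 to 14.4 CPM in Ctrl (3.59 ± 0.51, adjusted p = 1.23e-08). Epn3 was also called higher in Sox2-KO early ICMs (2.86 ± 0.78), where Mycbpap was not, and gave 0 to 15.7 CPM in Sox2-KO late ICMs against 0 to 17.6 CPM in Ctrl, where Mycbpap was. Rap1gap, 11.9 kb from Alpl on the opposite strand, was lower with it in Oct4-KO early ICMs (-1.63 ± 0.54, adjusted p = 0.0200) and was called lower in both Sox2-KO ICM comparisons (-1.29 and -1.38). In Oct4-KO late ICMs its difference was 0.040 ± 0.50 (adjusted p = 0.977). It also rose with Alpl from morula to early ICM in Sox2 Ctrl embryos (2.40 ± 0.45). The other called neighbours in ICM comparisons were Rsad1, Acsf2, Ptms and Ece1 as higher and Myo19 and a Riken clone near Pianp as lower. None of the tested neighbours of Alppl2 was called in a KO comparison.

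By the correlation of mean log2 CPM over the 16 groups, the genes most like Alppl2 were Mboat7 (0.98), an acyltransferase of phosphatidylinositol, Slc5a6 (0.97), a vitamin transporter, and Timd2 (0.97). Those most like Mycbpap were Actr3 (0.94), a subunit of the Arp2/3 complex, Slc44a4 (0.93) and the sialyltransferase gene St3gal6 (0.93). Lrrfip1 (0.91), Prxl2a (0.89) and Bex4 (0.89) were most like Car4. Basp1 (0.93), Mettl27 (0.93) and the adenosine kinase gene Adk (0.92) were most like Pianp. Tecr (0.95), an enzyme of very long chain fatty acid synthesis, Mmp12 (0.95) and Exoc6b (0.94) were most like Alpl. These are the top 3 of 7527 candidates each, over groups that share lines, stages and depth. Candidates reached a mean of 20 CPM in 1 group or more, and predicted genes and the like were passed over as in the ranking. With Spearman's rho only 1 of the 15, Mboat7, stayed among the top 3. Between the members themselves the correlation was 0.78 for Mycbpap and Car4, 0.46 for Alppl2 and Car4, 0.23 for Alppl2 and Mycbpap and -0.45 for Alppl2 and Pianp. The 16 groups include the Oct4-KO ICMs whose levels chose 4 of these genes, so part of these values is set by that choice.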

How the data were processed

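Single-embryo RNA-seq libraries enriched for 3′ ends were made by the authors with unique molecular identifiers (UMIs). Per the study's methods, the authors used UMI-tools, Cutadapt, TopHat2 (mm10, GENCODE vM23), featureCounts and TRUmiCount, and deposited whole-number UMI counts, not normalized. Use of strand in counting is not stated. The authors also deposited rlog values (DESeq2), on a log2 scale, which served only as an alternative.

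The members and gene lists were chosen with earlier results of these data known. Groups came from the sample labels. Genes were kept where, in 1 stage or more, a share of 0.5 of embryos or higher had a UMI, and were fitted by group in edgeR 4.0.16 (TMM, glmQLFit and glmQLFTest) in R 4.3.3: 14,053 genes in 96 Ctrl and KO embryos, and 13,923 genes with the MWT embryos added for comparisons with MWT. All adjusted p in the text come from these fits unless another tool is named. SE is the absolute log2 fold change divided by the square root of F. CPM used the scaling of all embryos. Named genes were Pou5f1, Sox2, the members, called genes of the related lists, called neighbours, the 3 genes next in rank and the 3 most alike, except that 1 called gene of a related list is not reported here. Over 416 pairs within groups the lowest chi-square per gene was 2.41, so no library appeared to be entered again. Intervals of UMI ratios are exact Poisson at 95%, on UMIs summed over a group. They leave out the spread between embryos and are no test, since these differences chose the genes. The test was also run on simulated counts, whose outcome is not reported here and on which no result rests. Alternatives were DESeq2 1.42.0, limma 3.58.1 on rlog, other scalings, no filter, thinned UMIs, all embryos in one fit, blocks and leaving out embryos. What the embryo numbers shared by Ctrl and KO groups mark is not stated, and the correlations of same-numbered embryos ran from -0.08 to 0.23, so they were not treated as pairs.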

Additional observations from a re-analysis of the deposited data

Results flagged for a closer look

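Among 80 groups of embryos (5 genes in 16 groups), 2 had 1 embryo that stood apart from the rest by Dixon's test at 95%, which chance gives in about 1 of 20 groups. In Sox2-KO morulae Alpl was lowest in embryo 6, at 8.34 CPM, while the next embryo held 19.6 CPM. In Oct4 MWT early ICMs Car4 was highest in embryo 8, at 6.25 CPM, and the other 4 embryos held no UMI. None of the 8 tested differences in effect between stages or lines was called in edgeR's test with all embryos, whereas DESeq2 called that of Alpl between lines in early ICMs (-1.38, adjusted p = 0.0461).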

How the results depend on the processing

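The 2 rises in Sox2-KO late ICMs (Alppl2 and Mycbpap) and the drop of Alpl in Oct4-KO early ICMs were called under other scalings, no filter, thinned UMIs, all embryos, DESeq2, limma and without any 1 embryo. Alpl in Oct4-KO late ICMs sat at the fold minimum and was not called with RLE size factors (-1.0), no filter (-0.99), thinned UMIs (-0.94), DESeq2 (-0.99) or label set 1 alone (-1.22), and ran from -1.32 to -0.87 without 1 embryo (not called in 8 of 16 such fits). The line difference of Alpl in early ICMs was -1.38 and called with DESeq2, ran from -1.58 to -1.15 without 1 embryo (called in 8 of 32 such fits), and in late ICMs was 0.051 with thinned UMIs. In Sox2-KO early ICMs thinned UMIs and the replicate block each called 1 gene (Alpl -1.01, Alppl2 1.57), and leaving out 1 embryo called 0 to 2. In Sox2-KO late ICMs Alppl2 remained the 1 gene called, and Mycbpap lost its call, with the replicate block (Mycbpap 1.44, adjusted p = 0.318), in the same embryos without it, an alternative chosen after seeing the data (1.70, adjusted p = 0.346), and in label set 2 alone (1.46). In the embryos of Oct4-KO early ICMs with shared numbers Alppl2 was 1.10 with the block and 1.11 without it, against 2.04. From early to late Sox2 Ctrl ICMs limma called 0 genes, and leaving out 1 embryo 0 to 1.

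Signs turned only for differences that were not called. In Oct4-KO morulae Mycbpap was -0.0097 with RLE, -0.046 with total UMIs, -0.0029 without a filter, -0.0098 with all embryos and -0.012 with DESeq2, and Car4 was -0.012, -0.047, -0.0046, -0.012 and -0.024, and -0.021 with limma. Mycbpap was 0.091 (Sox2 Ctrl, morula to early ICM) and -0.19 (Sox2 MWT against Ctrl) with thinned UMIs. With limma, Pianp was 0.00079 from early to late Sox2 Ctrl ICMs and Alppl2 0.10 in MWT against Ctrl Oct4 morulae. Car4 in Sox2-KO late ICMs was -0.035 with the replicate block and -0.63 in label set 2 alone. Without 1 embryo the ranges that crossed 0 were -0.11 to 0.20 (Alpl, late against early Sox2-KO effect), -0.051 to 0.21 (Alpl, early to late Sox2 Ctrl), -0.26 to 0.24 (Car4, Oct4-KO morulae), -0.23 to 0.62 (Car4, Sox2-KO late ICMs), -0.56 to 0.17 (Mycbpap, early to late Sox2 Ctrl), -0.91 to 0.10 (Mycbpap, morula to early Oct4 MWT), -0.19 to 0.27 (Mycbpap, Oct4-KO morulae) and -0.64 to 0.11 (Pianp, early to late Sox2 Ctrl).

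Among all genes limma called fewer: 611 against 1529 and 1236 against 2544 in Oct4-KO early and late ICMs, 207 against 459 and 439 against 977 in Sox2-KO ones, 56 against 113 in Oct4-KO morulae, 2248 against 4489 and 156 against 407 over the Sox2 Ctrl steps, 2017 against 3848 and 854 against 1839 over the Oct4 MWT steps, and 140 against 359 for Sox2 MWT. For MWT Oct4 morulae the count was 9, and 4 (thinned) to 15 (DESeq2, no filter). For the difference between Sox2-KO stages it was 6, and 0 (thinned) to 41 (DESeq2). Thinned UMIs gave 0 in Sox2-KO morulae against 1. The replicate block gave 638, 282 and 834 calls in Sox2-KO late ICMs, Oct4-KO morulae and Oct4-KO early ICMs, against 320 (late) and 851 (Oct4-KO early) in the same embryos without it, and 227 in Sox2-KO early ICMs. Label set 1 alone gave 458 in Sox2-KO late ICMs and set 2 alone 1435 in Oct4-KO late ICMs. Without a fold minimum, calls over the 4 ICM comparisons of KO and Ctrl rose from 7 to 22 for GPI anchor genes and from 8 to 13 for Myc partners. Neighbours within 250 kb gave 22 calls there against 12, and Spearman's rho kept 1 of 15 alike genes. The cause of these changes was not tested. The block could not be fitted for Sox2-KO morulae or Oct4-KO late ICMs, which share fewer than 2 numbers, and leaving out Sox2-KO morulae, or embryos of the MWT comparisons beyond 5 early ICMs, was not run. Levels under 3 UMIs per embryo, common for Mycbpap, Car4 and Pianp in Ctrl, limit their differences.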
